A study of Mus musculus with 8 samples.

Results

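Pressure overload in wild-type hearts was examined by RNA sequencing of 4 libraries, WT-Sham1 and WT-Sham2 against WT-TAC1 and WT-TAC2. Genes were kept if they read 1 FPKM or more in at least 2 of these 4 libraries, which left 14112 of the 25929 genes listed. FPKM values are fragment counts relative to transcript length and sequencing depth. The WT mice were C57BL/6 littermates of fat-1 transgenic mice, which carry an n-3 fatty acid desaturase of Caenorhabditis elegans, and were operated on at 3 months of age. In the TAC groups (transverse aortic constriction) a ligature narrowed the aortic arch, whereas sham mice had the chest opened and no constriction. The fat-1 mice had the same 2 operations, and their 4 libraries (Fat1-Sham and Fat1-TAC, 2 each) serve here only for comparison and for the common estimate of the spread. The labels name ventricular tissue and 2 independent samples per group, while the study's methods name the heart. No label states whether a sample was 1 animal, so the p-values measure the spread between these samples.

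When the aorta is narrowed, the left ventricle ejects against a higher load and its wall thickens. Cardiomyocytes under load are known to re-express a fetal set of genes (natriuretic peptides, beta-myosin heavy chain, skeletal alpha-actin), and cardiac fibroblasts to lay down collagen. In advanced overload, genes of fatty acid oxidation, calcium cycling and potassium currents are commonly reduced. These groups were therefore followed first, together with markers of cell types that a heart sample can hold.

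The libraries held between 14163994 and 21218331 fragments, and WT-TAC1, with 19828559, was neither the shallowest nor the deepest. WT-TAC1 stood apart from the other libraries. Across genes, which are not independent replicates, the 2 WT-TAC libraries correlated at 0.897 (log2 scale), and 2470 genes differed between them by more than 2-fold, whereas the pairs of the other 3 groups correlated at 0.982 to 0.985 with 243 to 351 such genes. In WT-TAC1, mitochondrially encoded genes took 11.7% of fragments, against 19.3% in WT-TAC2 and 22.8% to 27.5% in WT-Sham. A further 1665 genes reached 1 FPKM in WT-TAC1 alone among the 4 WT libraries and so were not tested, against 68, 91 and 264 in the others. The labelled tissue was checked against its markers, and the 20 adult sarcomere genes summed to 58448 and 53361 FPKM in WT-Sham and 28928 and 51660.0 FPKM in WT-TAC. Each gene is therefore described by its change in each WT-TAC library.

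Of the 14112 genes, limma called 167 higher in WT-TAC (1.18%) and 2 lower (0.0142%) with the limits set at a 1.5-fold change and an adjusted p of 0.1. Of the genes past that fold, 3288 higher ones (23.3%) and 160 lower ones (1.13%) had an unadjusted p under 0.05. The higher calls comprised 112 protein-coding genes, 42 immunoglobulin genes and 13 genes of other types, and in 102 of them neither WT-Sham library exceeded the detection floor of 3 fragments. The 2 lower calls, Gm13339 and Gm28438, are unprocessed pseudogenes, which can share fragments with a parent gene. These counts depended on which library was left out, also where the fold change did not. The airway gene Scgb3a2, at 0 FPKM in both WT-Sham libraries, kept a log2 fold change of 7.17 without WT-Sham1 and without WT-Sham2. Without WT-Sham1, limma called 0 genes in either direction, and 808 higher with 84 lower genes passed an unadjusted p of 0.05. Without WT-Sham2 it also called 0, and 2459 with 121 passed. Without WT-TAC1, 172 higher genes were called, of which 124 were among the 167, and 6 lower. Without WT-TAC2, 6410 higher and 908 lower genes were called, the 167 among them. In each of these fits the lone library of a group is assumed to vary like the other groups. The weighted count model limma-voom on recovered fragments called 19 genes higher, all among the 167, and a test gene by gene called 0 higher and 1 lower, so neither called a gene in any list below for which limma called 0. Between Fat1-TAC and Fat1-Sham, limma called 0 genes in either direction, and 172 higher genes (1.22%) with 74 lower genes (0.524%) passed an unadjusted p of 0.05.

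To separate shared changes from those of 1 library, the change of each WT-TAC library was taken as its log2(FPKM + 1) minus the mean of the 2 WT-Sham libraries. A gene moved in a library if this change was at least 1.5-fold and lay outside the range of the WT-Sham libraries. By this description, which is not a test, 1477 genes moved up in both WT-TAC libraries (10.5%) and 61 moved down in both (0.432%). In WT-TAC1 only, 5259 genes moved up (37.3%) and 891 down (6.31%). In WT-TAC2 only, 353 genes moved up (2.5%) and 51 down (0.361%), 24 genes moved in opposite directions (0.17%) and 5996 did not move (42.5%). All 167 higher calls were among the 1477 genes. Without a fold limit, both WT-TAC values lay above both WT-Sham values in 7491 genes (53.1%) and below both in 999 (7.08%). Over all tested genes the median change of WT-TAC1 was 0.54 and that of WT-TAC2 0.21, against -0.02 and 0.05 in the 2 Fat1-TAC libraries. With the same rule and the same genes, 172 genes moved up (1.22%) and 99 down (0.702%) in both Fat1-TAC libraries. A further 206 moved up and 206 down in Fat1-TAC1 only (1.46% each), 517 moved up (3.66%) and 110 down (0.779%) in Fat1-TAC2 only, 39 moved in opposite directions (0.276%) and 12763 did not move (90.4%).

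**Figure D1:**
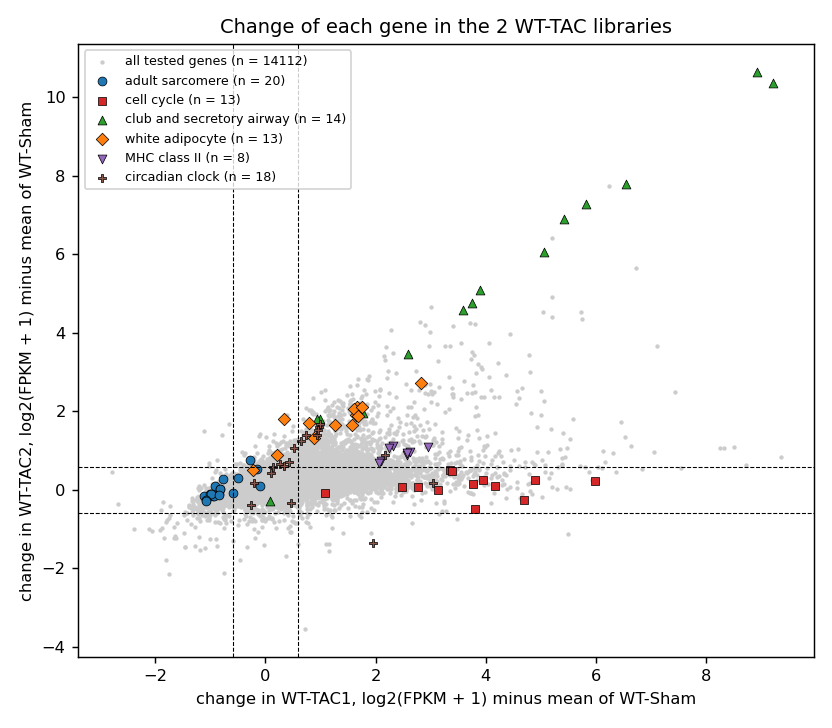
Change of 14112 genes in WT-TAC1 (horizontal axis) and WT-TAC2 (vertical axis), each as log2(FPKM + 1) minus the mean of the 2 WT-Sham libraries, with 6 gene lists in colour and dashed lines at a 1.5-fold change. Airway genes lie far out on both axes, whereas cell cycle genes lie far out only on the WT-TAC1 axis and sarcomere genes lie to the left of 0 there.

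The number of genes per direction depended on the scaling, as the plot of class counts shows. Against FPKM as deposited, where the median log2 fold change of WT-TAC over all tested genes was 0.39, scaling by the median of ratios brought this median to -0.015, and quantile normalization to -0.10. Genes moved down in WT-TAC1 only then numbered 3224 and 3894 in place of 891, and those moved up in both libraries 651 and 468 in place of 1477. Another scaling, chosen after the data were seen, set the adult sarcomere genes equal in all libraries. It brought the median to 0.77, with 10033 genes moved up and 18 down in WT-TAC1 only. Under these 3 scalings limma called 37 genes higher and 1 lower, 11 and 0, and 135 and 2. The airway, cilia, epithelial, immunoglobulin, B cell, MHC class II, white adipocyte, clock and cell cycle lists described below kept a positive median log2 fold change under all 3. FPKM values are relative to all RNA of a library, so that fewer cells of a type and less RNA per cell cannot be told apart.

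**Figure D2:**
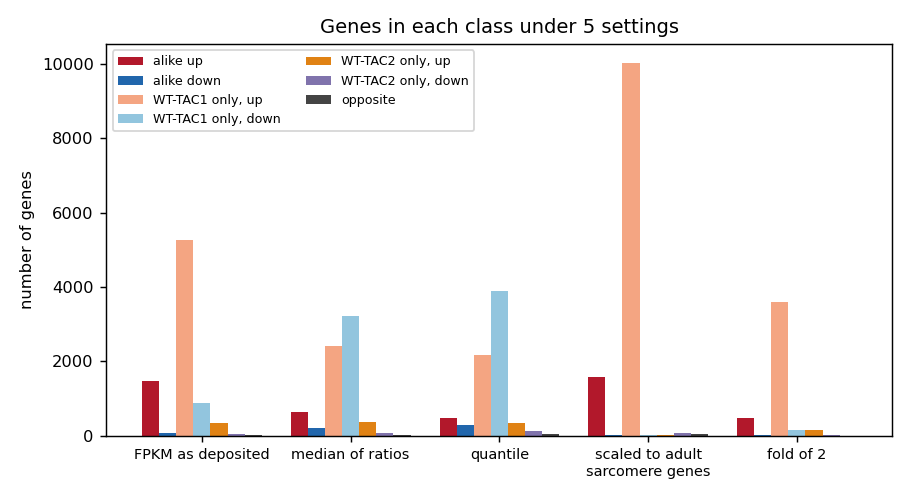
Number of genes (vertical axis) in each of 7 classes of movement under 5 settings (horizontal axis), shown as bars. Among genes that moved, those up in WT-TAC1 only are the largest class for FPKM as deposited (5259) and under the sarcomere scaling (10033), whereas those down in WT-TAC1 only are the largest under the median of ratios (3224) and quantile normalization (3894).

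The natriuretic and fetal programme, the classical readout of a loaded ventricle, did not move as a group on FPKM as deposited. Of its 24 genes, 22 were tested, and limma called 0 of them, and at an unadjusted p under 0.05 it held 1 higher and 2 lower. None of the 22 moved up in both WT-TAC libraries (10.5% of all tested genes did), 1 moved down in both (Meox1), 8 moved in WT-TAC1 only (2 up and 6 down) and 2 moved up in WT-TAC2 only. Their median change was -0.20 for WT-TAC1 and 0.22 for WT-TAC2, against 0.54 and 0.21 over all tested genes. The median log2 fold change turned from -0.01 to -0.48 under the median of ratios, -0.32 under quantile normalization and 0.40 under the sarcomere scaling. Under the sarcomere scaling, 2 of the 22 moved up in both WT-TAC libraries and 11 in WT-TAC1 only. Of all 14112 tested genes, 1566 and 10033 did so on that scale. The median changes of the list were then 0.67 for WT-TAC1 and 0.18 for WT-TAC2, against 1.34 and 0.17 over all tested genes.

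Nppb, which encodes B-type natriuretic peptide, at chr4:147985788-147987205 (GRCm38), read 248 and 175 FPKM in WT-Sham and 183 and 182 FPKM in WT-TAC, so that the WT-TAC libraries lay within the sham range (log2 fold change -0.19 ± 0.28 (SE), limma adjusted p = 0.63). Its direction flipped to higher under the sarcomere scaling. Nppa, which encodes atrial natriuretic peptide, at chr4:148000722-148002079, read 106 and 259 FPKM in WT-Sham and 299 and 241 FPKM in WT-TAC (log2 fold change 0.70 ± 1.04 (SE), limma adjusted p = 0.64). Both WT-TAC values resembled WT-Sham2, while WT-Sham1 was lower. Nppa is also an atrial gene, and the atrial genes Myl7 (456 and 1945 FPKM in WT-Sham and 1035 and 1097 FPKM in WT-TAC) and Myl4 (335 and 1189.6 FPKM in WT-Sham and 834 and 844 FPKM in WT-TAC) were likewise lowest in WT-Sham1. The atrial gene Bmp10, described below, was instead lowest in WT-Sham2 among the WT libraries. The 10 atrial genes summed to 1181 and 4256 FPKM in WT-Sham and 2754 and 2775 FPKM in WT-TAC, and to 1550.1 FPKM in Fat1-Sham1 against 70.8, 96.1 and 77.04 FPKM in the other 3 fat-1 libraries. The part of atrial RNA in the Nppa values was not tested.

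Myh7, the beta-myosin heavy chain of the fetal heart, at chr14:54970684-54994626, did not pass the test but had both WT-TAC values above both WT-Sham values, at 28.9 and 47.3 FPKM in WT-Sham and 50.7 and 89.0 FPKM in WT-TAC (log2 fold change 0.85 ± 0.35 (SE), limma adjusted p = 0.18). Such an order was seen in 53.1% of all tested genes. In the fat-1 hearts Myh7 read 31.1 and 30.5 FPKM in Fat1-Sham and 76.0 and 119.6 FPKM in Fat1-TAC, where it moved up in both libraries. Myh6, the adult alpha-myosin heavy chain, read 13402 and 15522 FPKM in WT-Sham and 7406 and 13333 FPKM in WT-TAC (log2 fold change -0.54 ± 0.41 (SE), limma adjusted p = 0.36), with only WT-TAC1 below the sham range by more than 1.5-fold and a positive fold change under quantile normalization. Acta1, the skeletal alpha-actin, read 183 and 326 FPKM in WT-Sham and 138 and 185 FPKM in WT-TAC (log2 fold change -0.61 ± 0.48 (SE), limma adjusted p = 0.37), with WT-TAC1 below the sham range and WT-TAC2 at its lower end. Ankrd1, a stress-responsive protein of the sarcomere, read 452 and 486 FPKM in WT-Sham and 401 and 549 FPKM in WT-TAC (log2 fold change 0.00065 ± 0.19 (SE), limma adjusted p = 1), so that the WT-TAC libraries bracketed the sham libraries. Its fold change was negative under the median of ratios.

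All 25 genes of fibrillar matrix were tested and limma called 0, with 1 higher at an unadjusted p under 0.05. Col1a2 and Col14a1 moved up in both WT-TAC libraries, 2 moved up and 4 moved down in WT-TAC1 only, and 17 did not move. Col1a1, the alpha-1 chain of type I collagen, read 64.6 and 106 FPKM in WT-Sham and 124 and 124 FPKM in WT-TAC (log2 fold change 0.57 ± 0.22 (SE), limma adjusted p = 0.17), with WT-Sham2 much closer to the WT-TAC libraries than WT-Sham1. Col3a1, of type III collagen, read 149 and 234 FPKM in WT-Sham and 243 and 223 FPKM in WT-TAC (log2 fold change 0.32 ± 0.22 (SE), limma adjusted p = 0.31). The median change of the list was 0.13 for WT-TAC1 and 0.26 for WT-TAC2, and its median log2 fold change turned from 0.17 to -0.30 and -0.18 under the median of ratios and quantile normalization. It was -0.09 without WT-Sham1, 0.52 without WT-Sham2 and 0.58 under the sarcomere scaling.

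Among 40 matricellular and activated-fibroblast genes, 35 were tested, limma called 0 (7 higher at an unadjusted p under 0.05), and 5 moved up in both WT-TAC libraries. Of all tested genes, 23.3% were higher at that p and 10.5% moved up in both. The 5 genes were Fn1, Spp1, Timp2, Ltbp2 and Sfrp2, whereas Cilp moved down in both. Fn1, which encodes fibronectin, at chr1:71585520-71653200, read 19.2 and 35.8 FPKM in WT-Sham and 63.2 and 66.8 FPKM in WT-TAC (log2 fold change 1.27 ± 0.33 (SE), limma adjusted p = 0.17). Sfrp2, a secreted Wnt-binding protein, read 2.84 and 7.01 FPKM in WT-Sham and 20.3 and 18.02 FPKM in WT-TAC (log2 fold change 1.86 ± 0.38 (SE), limma adjusted p = 0.11), the largest fold change among the tested genes of the list. Spp1, which encodes osteopontin, read 0.531 and 2.53 FPKM in WT-Sham and 6.78 and 4.71 FPKM in WT-TAC (log2 fold change 1.52 ± 0.40 (SE), limma adjusted p = 0.17). In these 3 genes no WT-TAC value overlapped a WT-Sham value. Both WT-TAC values lay above both WT-Sham values in 53.1% of all tested genes. Postn, which encodes periostin, read 21.2 and 49.5 FPKM in WT-Sham and 49.7 and 47.3 FPKM in WT-TAC, and Ccn2, connective tissue growth factor, 39.7 and 35.3 FPKM in WT-Sham and 50.9 and 52.9 FPKM in WT-TAC. Postn in WT-Sham2 was thus as high as in WT-TAC, and Ccn2 was higher in both WT-TAC libraries by less than 1.5-fold. Fn1 read 18.004 and 17.2 FPKM in Fat1-Sham and 14.7 and 25.8 FPKM in Fat1-TAC in the fat-1 mice, and Sfrp2 4.30 and 3.03 FPKM in Fat1-Sham and 2.26 and 3.71 FPKM in Fat1-TAC. Both thus lay in the fat-1 TAC libraries near the fat-1 sham values. The smooth muscle genes Myh11 (9.08 and 29.9 FPKM in WT-Sham and 30.3 and 41.9 FPKM in WT-TAC) and Cnn1 (3.73 and 25.0 FPKM in WT-Sham and 30.3 and 45.7 FPKM in WT-TAC) moved up in both WT-TAC libraries with 0 of 14 tested genes called, and WT-Sham1 was far lower than WT-Sham2 in both. The cartilage and airway lists described below were higher in the same libraries, and their part in the matrix values was not tested.

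**Figure D3:**
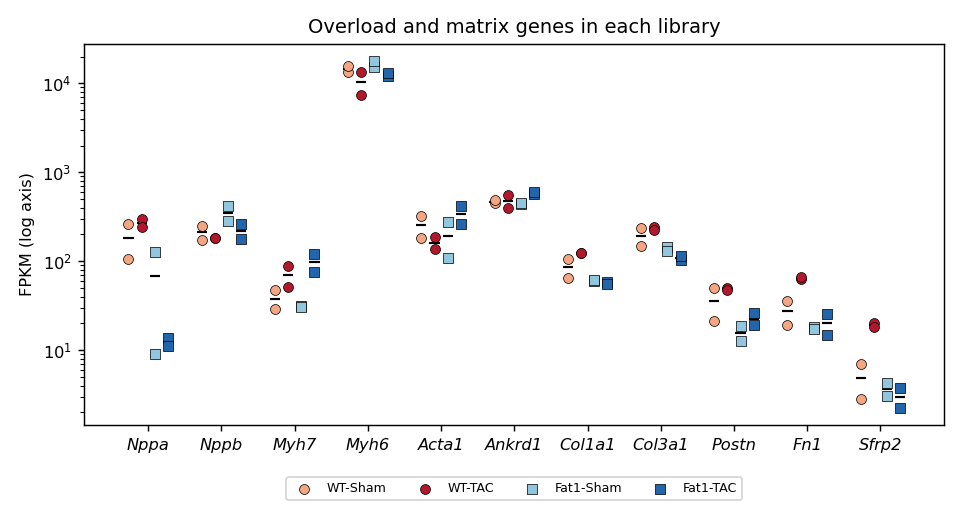
FPKM on a log axis for 11 genes of cardiac overload and matrix (horizontal axis) in each of the 8 libraries, with 1 point per library and a short line at the mean of the 2 libraries of a group. The WT-TAC points of Nppb lie within the WT-Sham range, and those of Fn1 and Sfrp2 lie above it.

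Genes of the airway lining held 6 of the 8 largest shared upward changes among genes averaging at least 5 FPKM. Of the 15 club and secretory airway genes, 14 were tested, 13 moved up in both WT-TAC libraries and limma called 11 (13 without WT-TAC1). Genes near 0 in both sham libraries, such as these, passed the filter through the WT-TAC libraries, so counts over tested genes are given beside those over the whole list, and their fitted fold changes depend on the pseudocount. Over all 15 airway genes, 13 moved up in both. Of all tested genes, 10.5% did so and 1.18% were called higher. The median change of the 14 tested genes was 3.82 for WT-TAC1 and 4.92 for WT-TAC2. The list summed to 5.66 and 11.5 FPKM in WT-Sham and 1666 and 4374 FPKM in WT-TAC, and to 54.3 FPKM in Fat1-Sham1 and 3.58 to 6.01 FPKM in the other fat-1 libraries. Scgb1a1, the secretoglobin of club cells, at chr19:9083636-9087958, read 0.297 and 0.099 FPKM in WT-Sham and 707 and 1555 FPKM in WT-TAC (log2 fold change 9.78 ± 1.36 (SE), limma adjusted p = 0.042). Bpifa1, a secreted airway defence protein, read 0.436 and 0.0582 FPKM in WT-Sham and 599.6 and 1968 FPKM in WT-TAC (log2 fold change 9.79 ± 1.04 (SE), limma adjusted p = 0.02). Ltf, which encodes lactoferrin, read 0.104 and 0.484 FPKM in WT-Sham and 71.2 and 196 FPKM in WT-TAC (log2 fold change 6.54 ± 0.45 (SE), limma adjusted p = 0.0082). In all 3 the 2 WT-TAC libraries were high and both sham libraries near 0, and WT-TAC2 was higher than WT-TAC1. Scgb3a2 and Reg3g, a secretoglobin and an antimicrobial lectin, were listed at 0 in both WT-Sham libraries and read 92.9 and 219 FPKM and 13.8 and 32.7 FPKM in WT-TAC. Against a floor of 3 fragments per library, they were at least 579-fold and 189-fold higher.

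Calls were ranked by adjusted p among genes averaging at least 5 FPKM. Predicted genes, pseudogenes and segments of immunoglobulin or T cell receptor genes were left out. Of the 10 with the smallest adjusted p, 6 were in the airway list and 4 were not. Cyp2a5, a cytochrome P450 of airway and liver, read 0.0737 and 0 FPKM in WT-Sham and 77.7 and 221 FPKM in WT-TAC (log2 fold change 6.996 ± 0.50 (SE), limma adjusted p = 0.0082). Sec14l3, a lipid-binding protein, read 0 and 0 FPKM in WT-Sham and 36.0 and 84.3 FPKM in WT-TAC (log2 fold change 5.81 ± 0.45 (SE), limma adjusted p = 0.0099), and Cbr2, a carbonyl reductase abundant in lung, read 39.97 and 61.1 FPKM in WT-Sham and 312 and 529 FPKM in WT-TAC (log2 fold change 3.01 ± 0.30 (SE), limma adjusted p = 0.018). Ccdc153 read 0 and 0 FPKM in WT-Sham and 12.9 and 9.83 FPKM in WT-TAC and shared with Cyp2a5 and Ltf the smallest adjusted p of all genes, 0.0082 by limma. In none of the 4 did the groups overlap, and 53.1% of all tested genes had both WT-TAC values above both WT-Sham values. Only Cbr2 of the 4 had sham values above 1 FPKM. All 10 were also called without WT-TAC1.

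Markers of ciliated and other epithelial cells were called as well. For comparison, 10.5% of all tested genes moved up in both WT-TAC libraries, 37.3% moved up in WT-TAC1 only and 1.18% were called higher. Of 20 motile cilia genes, 12 were tested, 9 moved up in both WT-TAC libraries and 7 were called (8 without WT-TAC1), and 11 of the 18 listed by the files moved up in both. Foxj1, the transcription factor of motile cilia, read 0.108 and 0.018 FPKM in WT-Sham and 2.75 and 4.80 FPKM in WT-TAC (log2 fold change 2.13 ± 0.26 (SE), limma adjusted p = 0.026). Of 18 general epithelial genes, 16 were tested, 15 moved up in both and 8 were called (11 without WT-TAC1). Over all 18, 15 moved up in both and 1 in WT-TAC1 only. Krt8, a simple-epithelial keratin, read 1.88 and 2.11 FPKM in WT-Sham and 82.6 and 23.0 FPKM in WT-TAC (log2 fold change 3.90 ± 0.52 (SE), limma adjusted p = 0.036), and Cdh1, which encodes E-cadherin, read 0.0252 and 0.0168 FPKM in WT-Sham and 11.9 and 4.58 FPKM in WT-TAC (log2 fold change 3.06 ± 0.38 (SE), limma adjusted p = 0.028). Krt15, a basal-cell keratin, was listed at 0 in all 6 other libraries and read 6.46 and 17.2 FPKM in WT-TAC. Of 14 alveolar genes, 6 were tested, 4 moved up in both and 2 were called (Sftpd and Aqp5). Over the 13 alveolar genes in the table, 4 moved up in both and 8 in WT-TAC1 only. Sftpc, the surfactant protein that defines alveolar type 2 cells, was not tested and read 0 and 0.117 FPKM in WT-Sham, 74.7 and 0.138 FPKM in WT-TAC and 29.9 FPKM in Fat1-Sham1. It was thus high in WT-TAC1 and near 0 in WT-TAC2, unlike the airway genes. Of 14 cartilage genes, 8 were tested, 4 of these moved up in both and 1, Acan, was called, and over all 14 genes 5 moved up in both.

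Genes of B and plasma cells were also higher in both libraries. Among all tested genes, 10.5% moved up in both, 37.3% moved up in WT-TAC1 only and 1.18% were called higher. Of 187 immunoglobulin segments and constant genes, 116 were tested, 113 moved up in both WT-TAC libraries and 42 were called (24 without WT-TAC1). Over all 187, 132 moved up in both and 38 in WT-TAC1 only. They summed to 50.5 and 27.2 FPKM in WT-Sham and 2612 and 1257 FPKM in WT-TAC. These near-identical genes can share fragments, so that single segments are uncertain. Of 14 B and plasma cell genes, 13 were tested, 12 moved up in both and 1, Iglc2, was called. Iglc2 is itself an immunoglobulin constant gene, as are Ighm, Igkc and Ighg2c of this list, so this list and the immunoglobulin list overlap. Over all 14, 12 moved up in both and 1 in WT-TAC1 only. Jchain, the joining chain of secreted IgM and IgA, read 0.492 and 0.101 FPKM in WT-Sham and 67.4 and 28.7 FPKM in WT-TAC (log2 fold change 5.14 ± 1.12 (SE), limma adjusted p = 0.14), and Cd79a, a subunit of the B cell receptor, read 0.727 and 0.582 FPKM in WT-Sham and 4.57 and 4.70 FPKM in WT-TAC (log2 fold change 1.77 ± 0.49 (SE), limma adjusted p = 0.17). In the fat-1 mice Jchain was high in 1 library only, at 0.693 and 0.192 FPKM in Fat1-Sham and 0.631 and 24.5 FPKM in Fat1-TAC. The immunoglobulin list had median changes of 3.04 for WT-TAC1 and 2.34 for WT-TAC2, and of 0 in Fat1-TAC1 and 1.87 in Fat1-TAC2.

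All 8 tested genes of MHC class II antigen presentation moved up in both WT-TAC libraries, and limma called 0, with all 8 higher at an unadjusted p under 0.05. H2-Aa, a class II alpha chain, read 68.1 and 56.8 FPKM in WT-Sham and 375 and 116 FPKM in WT-TAC (log2 fold change 1.73 ± 0.49 (SE), limma adjusted p = 0.17), and Cd74, the invariant chain, 59.5 and 52.7 FPKM in WT-Sham and 337 and 108 FPKM in WT-TAC (log2 fold change 1.75 ± 0.48 (SE), limma adjusted p = 0.17). WT-TAC1 was higher than WT-TAC2 in both genes, and the median change was 2.45 for WT-TAC1 and 0.95 for WT-TAC2. B cells and thymic epithelium also carry class II molecules, and the thymic epithelial list summed to 4.35 and 6.44 FPKM in WT-Sham and 545 and 33.6 FPKM in WT-TAC. The part of these cells in the class II values was not tested. Of 24 macrophage genes, 4 moved up in both libraries (Lgals3, Gpnmb, Spp1 and Ccl8) and 0 were called, with 6 higher at an unadjusted p under 0.05, against 10.5% of all tested genes moved up in both and 23.3% higher at that p. Gpnmb, a glycoprotein of lipid-laden macrophages, read 1.65 and 2.99 FPKM in WT-Sham and 11.2 and 6.30 FPKM in WT-TAC (log2 fold change 1.54 ± 0.34 (SE), limma adjusted p = 0.14). The macrophage markers Adgre1 (6.78 and 7.15 FPKM in WT-Sham and 9.37 and 7.29 FPKM in WT-TAC) and Csf1r (13.9 and 16.5 FPKM in WT-Sham and 20.1 and 18.004 FPKM in WT-TAC) did not move. Lyz2, the lysozyme of myeloid cells, read 171 and 193 FPKM in WT-Sham and 343 and 271 FPKM in WT-TAC (log2 fold change 0.75 ± 0.17 (SE), limma adjusted p = 0.15). Of 20 interferon-stimulated genes, 2 moved up in both (Ifi27l2a and Cxcl10) and 12 in WT-TAC1 only, against 10.5% and 37.3% of all tested genes. Limma called 0 of them, and 7 were higher at an unadjusted p under 0.05, against 23.3% of all tested genes.

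Of 13 white adipocyte genes, all tested, 10 moved up in both WT-TAC libraries and limma called 0, with 3 higher at an unadjusted p under 0.05. Over all tested genes, 10.5% moved up in both and 23.3% were higher at that p. Adipoq, which encodes adiponectin, read 28.1 and 35.1 FPKM in WT-Sham and 100.3 and 119.7 FPKM in WT-TAC (log2 fold change 1.77 ± 1.33 (SE), limma adjusted p = 0.35), and Lep, which encodes leptin, read 0.269 and 0.9989 FPKM in WT-Sham and 10.2 and 9.41 FPKM in WT-TAC (log2 fold change 2.76 ± 0.70 (SE), limma adjusted p = 0.17). No value of WT-TAC overlapped WT-Sham in either gene, and 53.1% of all tested genes had both WT-TAC values above both WT-Sham values. Adipoq spread widely in the fat-1 hearts, with 42.5 and 9.04 FPKM in Fat1-Sham and 0.818 and 40.7 FPKM in Fat1-TAC, and this spread enters the error of the WT test. With only the 4 WT libraries, Adipoq had an adjusted p of 0.065 by limma. The median change of the list was 1.57 for WT-TAC1 and 1.79 for WT-TAC2, and -2.60 in Fat1-TAC1 and 0.69 in Fat1-TAC2. Of 8 brown adipocyte genes, 5 moved up in WT-TAC2 only with 0 called, and the median log2 fold change of 0.40 became -0.13 under quantile normalization. Ucp1, the uncoupling protein of brown fat, read 12.04 and 44.0 FPKM in WT-Sham and 39.4 and 102 FPKM in WT-TAC.

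Clock output genes moved up in both libraries. In the circadian clock, the activators ARNTL and CLOCK bind E-boxes and induce the Per and Cry repressors and the factors DBP, TEF and HLF, which in turn act through D-boxes. Of 18 clock genes tested, 7 moved up in both WT-TAC libraries (Per1, Per2, Per3, Cry1, Dbp, Hlf and Ciart), 4 moved up in WT-TAC2 only, and limma called 0, with 7 higher at an unadjusted p under 0.05. Of all tested genes 10.5% moved up in both and 23.3% were higher at that p. The promoters of 15 of the 18 genes were in the RefSeq table (GRCm38.p6, 250 bases before to 50 bases after the start site). Of these genes, 5 held the E-box CACGTG and 1 the D-box TTATGTAA, searched on both strands. Among all 27025 genes with a promoter in the table, 8.09% held the E-box and 1.11% the D-box. Stretches of 4 promoters are shown because their genes moved up in both libraries and they hold these motifs, with the motifs in capitals, 5′ to 3′ on the strand of the gene:
Ciart, chr3:95882247-95882364, minus strand: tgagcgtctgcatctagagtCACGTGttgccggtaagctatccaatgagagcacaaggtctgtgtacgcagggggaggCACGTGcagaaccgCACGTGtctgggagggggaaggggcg
Per1, chr11:69098763-69098808, plus strand: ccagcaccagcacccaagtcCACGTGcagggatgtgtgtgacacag
Cry1, chr10:85185089-85185134, minus strand: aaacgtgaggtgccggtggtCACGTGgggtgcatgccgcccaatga
Per3, chr4:151044796-151044890, minus strand: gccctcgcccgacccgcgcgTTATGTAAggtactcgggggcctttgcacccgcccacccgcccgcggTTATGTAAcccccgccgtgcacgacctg
The Ciart stretch holds the E-box 3 times and the Per3 stretch the D-box 2 times. The promoters of Dbp and Hlf hold neither motif in this window, and Per2 had no entry. The E-box also lies in the promoters of Bhlhe41 and Tef, which did not move up in both libraries.

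Per3, a period repressor, at chr4:151003652-151044665, read 4.36 and 13.0 FPKM in WT-Sham and 16.3 and 26.8 FPKM in WT-TAC (log2 fold change 1.34 ± 0.49 (SE), limma adjusted p = 0.17). Ciart, a repressor of CLOCK and ARNTL, read 3.96 and 10.5 FPKM in WT-Sham and 13.6 and 20.6 FPKM in WT-TAC (log2 fold change 1.24 ± 0.40 (SE), limma adjusted p = 0.17), and Dbp, a PAR bZIP factor, read 23.9 and 62.8 FPKM in WT-Sham and 65.3 and 104 FPKM in WT-TAC (log2 fold change 1.06 ± 0.46 (SE), limma adjusted p = 0.18). In these 3 genes WT-TAC1 lay closer to WT-Sham2 than WT-Sham1 did, and WT-TAC2 was highest. Per1 read 8.48 and 13.0 FPKM in WT-Sham and 21.2 and 29.0 FPKM in WT-TAC (log2 fold change 1.16 ± 0.25 (SE), limma adjusted p = 0.12). Both its WT-TAC values lay above both sham values, as in 53.1% of all tested genes. Per2, another period repressor, read 5.96 and 8.46 FPKM in WT-Sham and 14.9 and 23.5 FPKM in WT-TAC (log2 fold change 1.28 ± 0.30 (SE), limma adjusted p = 0.15), and without WT-TAC1 it was called at a limma adjusted p of 0.091. Cry1 read 5.97 and 8.43 FPKM in WT-Sham and 35.6 and 14.1 FPKM in WT-TAC (log2 fold change 1.54 ± 0.46 (SE), limma adjusted p = 0.17) and was highest in WT-TAC1. The activator Arntl read 3.58 and 1.96 FPKM in WT-Sham and 13.2 and 0.446 FPKM in WT-TAC and moved in opposite directions in the 2 WT-TAC libraries. Cry1 and Arntl were thus highest in the library that held the most thymocyte RNA, as described below, and the part of that RNA in their values was not tested.

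Clock genes also moved in the fat-1 hearts. There, 9 of the 18 clock genes moved up in both Fat1-TAC libraries and 3 moved down in both (Arntl, Clock and Npas2). Dbp read 15.4 and 8.66 FPKM in Fat1-Sham and 97.0 and 97.8 FPKM in Fat1-TAC, Ciart 2.50 and 2.54 FPKM in Fat1-Sham and 22.8 and 17.2 FPKM in Fat1-TAC and Arntl 6.58 and 7.23 FPKM in Fat1-Sham and 0.979 and 0.546 FPKM in Fat1-TAC. The difference of the TAC response between genotypes did not pass the test for Dbp (interaction 1.90 ± 0.66 on the log2 scale, limma adjusted p = 0.49) or for Ciart (1.33 ± 0.57, limma adjusted p = 0.49). The clock list had a median log2 fold change of 0.68, which was 0.23, 0.34 and 1.08 under the median of ratios, quantile and sarcomere scalings. The hour of tissue collection is not given in the sources used here.

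**Figure D4:**
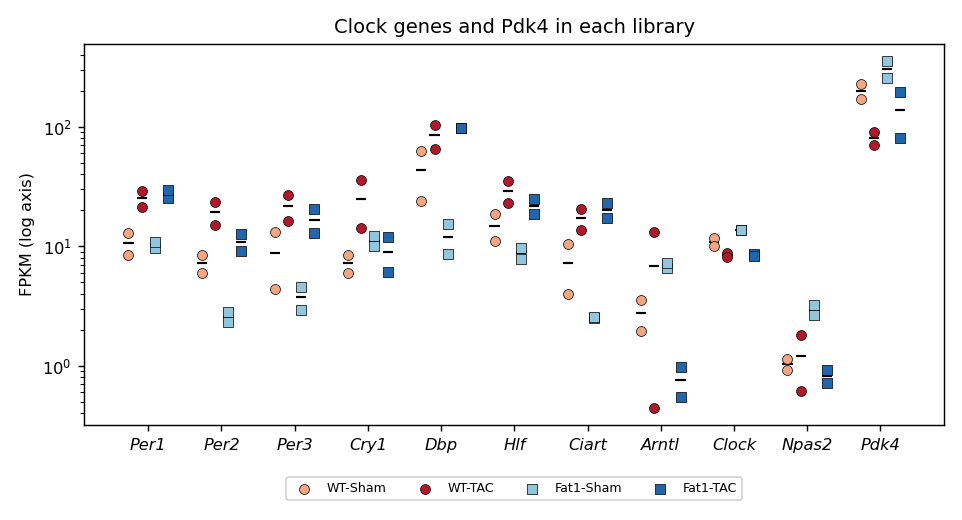
FPKM on a log axis for 10 clock genes and Pdk4 (horizontal axis) in each of the 8 libraries, with 1 point per library and a short line at the mean of a group. Per1, Per2, Per3, Dbp, Hlf and Ciart lie higher in the TAC libraries of both genotypes, and Pdk4 lies lower.

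Few genes moved down in both WT-TAC libraries, and 22 of these 61 were protein coding. Pdk4, the kinase that shuts off pyruvate dehydrogenase when fatty acids are burned, at chr6:5483351-5496309, read 172 and 226 FPKM in WT-Sham and 69.9 and 90.8 FPKM in WT-TAC (log2 fold change -1.30 ± 0.40 (SE), limma adjusted p = 0.17). It was lower in each WT-TAC library than in either sham library, as were 7.08% of all tested genes. In the fat-1 mice Pdk4 also moved down in both libraries, with 256 and 352 FPKM in Fat1-Sham and 196 and 80.7 FPKM in Fat1-TAC. Slc41a3, a magnesium transporter, read 25.0 and 25.9 FPKM in WT-Sham and 7.69 and 13.6 FPKM in WT-TAC (log2 fold change -1.23 ± 0.27 (SE), limma adjusted p = 0.14). Tnfaip2, a gene induced by tumour necrosis factor, read 25.9 and 23.7 FPKM in WT-Sham and 14.3 and 14.4 FPKM in WT-TAC (log2 fold change -0.75 ± 0.17 (SE), limma adjusted p = 0.15), with the 2 WT-TAC libraries nearly equal. Ptgds, a prostaglandin D2 synthase, read 368 and 348 FPKM in WT-Sham and 106 and 218 FPKM in WT-TAC (log2 fold change -1.23 ± 0.40 (SE), limma adjusted p = 0.17). S100a9, of neutrophil calprotectin, read 7.94 and 16.2 FPKM in WT-Sham and 6.35 and 1.83 FPKM in WT-TAC, and its partner S100a8 7.89 and 17.6 FPKM in WT-Sham and 8.30 and 2.72 FPKM in WT-TAC, of which WT-TAC1 lay within the sham range. Scd4, a fatty acid desaturase, read 4.46 and 14.2 FPKM in WT-Sham and 2.76 and 2.37 FPKM in WT-TAC. Of the 13 mitochondrially encoded genes, mt-Nd3 and mt-Co3 moved down in both libraries and 9 in WT-TAC1 only. The mt-Nd3 gene, of complex I, read 303 and 325 FPKM in WT-Sham and 74.5 and 150.1 FPKM in WT-TAC (log2 fold change -1.56 ± 0.46 (SE), limma adjusted p = 0.17) and 891 and 456 FPKM in Fat1-Sham and 1210.0 and 652 FPKM in Fat1-TAC.

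Genes of developing T cells were high in WT-TAC1, and most of them were not tested because they reached 1 FPKM in that library alone. Of 17 thymocyte genes, 16 were listed and 15 of these moved up in WT-TAC1 only, and 3 of the 16 passed the filter (Cd4 among them), of which 2 moved up in WT-TAC1 only and 1 in both libraries, with 0 called and 1 higher at an unadjusted p under 0.05. The list summed to 13.9 and 17.4 FPKM in WT-Sham and 3341 and 37.6 FPKM in WT-TAC, and to 13.9 to 21.1 FPKM in the fat-1 libraries. Rag1, a recombinase of immature lymphocytes, was listed at 0 in both sham libraries and read 252 and 0.059 FPKM in WT-TAC. Cd4, the co-receptor, read 0.591 and 0.646 FPKM in WT-Sham and 302 and 1.36 FPKM in WT-TAC (log2 fold change 4.04 ± 1.86 (SE), limma adjusted p = 0.19), and Dntt, the terminal transferase of thymocytes, read 0 and 0.0225 FPKM in WT-Sham and 267 and 0.0265 FPKM in WT-TAC. In these genes WT-TAC2 was near the sham libraries and WT-TAC1 far above them. Thymic epithelial genes were highest in the same library, where Prss16, a protease of the thymic cortex, read 228 FPKM against 0.0708 FPKM in WT-TAC2 and 0 in both sham libraries. Of the 8 in the table, however, 5 moved up in both WT-TAC libraries and 3 in WT-TAC1 only. These 5 were the tested ones, and 1 was called. Of all tested genes, 10.5% moved up in both, 37.3% in WT-TAC1 only and 1.18% were called higher. Krt5, Krt14, Krt8 and Cldn4 are also in the general epithelial list.

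Cell cycle genes were high in WT-TAC1 as well. All 20 moved up in WT-TAC1 only, and the 13 tested had a median change of 3.77 for WT-TAC1 and 0.10 for WT-TAC2, with 0 called and 2 higher at an unadjusted p under 0.05. Mki67, a marker of proliferating cells, read 1.51 and 1.21 FPKM in WT-Sham and 69.3 and 1.78 FPKM in WT-TAC (log2 fold change 2.57 ± 1.25 (SE), limma adjusted p = 0.2), and Top2a, topoisomerase II alpha, read 2.62 and 2.17 FPKM in WT-Sham and 214 and 2.95 FPKM in WT-TAC (log2 fold change 3.11 ± 1.54 (SE), limma adjusted p = 0.2). Of 86 cytosolic ribosomal protein genes, 72 moved up in WT-TAC1 only, with a median change of 0.98 for WT-TAC1 and 0.11 for WT-TAC2 and 0 called (23 higher at an unadjusted p under 0.05). Over all tested genes, 37.3% moved up in WT-TAC1 only and 23.3% were higher at that p. The median log2 fold change of the ribosomal genes, 0.53, became 0.05 under the median of ratios. The part of thymocyte RNA in these 2 lists was not tested. Of 13 fast skeletal muscle genes in the table, 8 moved up in WT-TAC1 only. Mylpf, a fast myosin light chain, read 1.46 and 1.19 FPKM in WT-Sham and 65.4 and 1.15 FPKM in WT-TAC, and Myh4, a fast myosin heavy chain, 0 and 0 FPKM in WT-Sham and 4.47 and 0 FPKM in WT-TAC. Immediate early genes moved up in WT-TAC1 only in 8 of 18 genes, against 37.3% of all tested genes, among them Egr1 (4.90 and 9.99 FPKM in WT-Sham and 24.1 and 7.34 FPKM in WT-TAC).

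Genes of the cardiomyocyte moved the other way in that library, on the scale of FPKM as deposited. In WT-TAC1 only, 16 of 20 adult sarcomere genes moved down, as did 24 of 32 genes of fatty acid oxidation, 19 of 19 of the citric acid cycle, 32 of 36 of complex I, 36 of 45 of complexes II to V, 10 of 17 of calcium handling and 13 of 20 potassium and conduction channel genes. Of all tested genes, 6.31% did so. Atp2a2, the calcium pump SERCA2, read 3797 and 4352 FPKM in WT-Sham and 2092 and 3691 FPKM in WT-TAC (log2 fold change -0.55 ± 0.32 (SE), limma adjusted p = 0.24). Cpt2, of the carnitine shuttle, read 173 and 203 FPKM in WT-Sham and 102 and 186 FPKM in WT-TAC (log2 fold change -0.45 ± 0.27 (SE), limma adjusted p = 0.26), and Lpl, lipoprotein lipase, 1906 and 2063 FPKM in WT-Sham and 884 and 1619 FPKM in WT-TAC (log2 fold change -0.73 ± 0.30 (SE), limma adjusted p = 0.17). Kcnip2, a subunit of the transient outward current, read 97.3 and 93.3 FPKM in WT-Sham and 48.8 and 105 FPKM in WT-TAC (log2 fold change -0.41 ± 0.31 (SE), limma adjusted p = 0.36), and Ndufa5, of complex I, read 1021 and 836 FPKM in WT-Sham and 416 and 649.7 FPKM in WT-TAC (log2 fold change -0.83 ± 0.24 (SE), limma adjusted p = 0.17). In Atp2a2, Cpt2, Lpl and Kcnip2, WT-TAC2 was within or close to the sham range.

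The size of these shifts was similar across the groups. The median change in WT-TAC1 was -0.87 for the sarcomere genes, -0.86 for fatty acid oxidation, -0.72 for the citric acid cycle, -0.78 for complex I, -0.76 for calcium handling and -0.73 for the channels. After scaling to the sarcomere genes, the medians in WT-TAC1 and WT-TAC2 were 0.02 and -0.08 for fatty acid oxidation, 0.16 and -0.07 for the citric acid cycle, 0.09 and -0.25 for complex I, 0.11 and -0.06 for calcium handling and 0.06 and -0.07 for the channels. On that scale 2 of the 32 fatty acid oxidation genes, Pdk4 and Ppargc1a, moved down in both libraries, and 0 of the 19, 36, 17 and 20 genes of the other lists did. The mitochondrially encoded genes kept medians of -0.25 and -0.46. No gene of these lists was called by limma on FPKM as deposited, where 1 sarcomere gene, 5 genes of fatty acid oxidation, 0 of the citric acid cycle, 10 of complex I, 11 of complexes II to V, 1 of calcium handling, 0 channels and 1 mitochondrially encoded gene were lower at an unadjusted p under 0.05. In the same library the thymocyte list summed to 3341 FPKM, and its part in these values was not tested. Endothelial genes moved down in WT-TAC1 only in 8 of 20 genes, with 0 called, among them Kdr, a receptor of vascular endothelial growth factor (42.3 and 47.6 FPKM in WT-Sham and 24.7 and 39.3 FPKM in WT-TAC), and their median log2 fold change of -0.28 became 0.13 under the sarcomere scaling.

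The signalling and regulatory genes that accompany overload were followed next. Of 17 tested genes of the renin-angiotensin, endothelin and adrenergic systems, 11 did not move, 0 moved in both WT-TAC libraries and limma called 0, with 0 at an unadjusted p under 0.05 in either direction. Ace, the angiotensin-converting enzyme, read 23.0 and 33.3 FPKM in WT-Sham and 27.8 and 34.7 FPKM in WT-TAC, Agtr1a, an angiotensin II receptor, 35.8 and 35.6 FPKM in WT-Sham and 22.3 and 43.3 FPKM in WT-TAC, and Adrb1, the beta-1 adrenergic receptor, 7.45 and 11.5 FPKM in WT-Sham and 5.89 and 10.4 FPKM in WT-TAC. Of these 3 only Agtr1a moved, down in WT-TAC1. Of 20 cardiac transcription factor genes, 7 moved down and 4 moved up in WT-TAC1 only and 9 did not move. Gata4, a driver of hypertrophic transcription, read 55.1 and 65.4 FPKM in WT-Sham and 29.7 and 58.4 FPKM in WT-TAC (log2 fold change -0.52 ± 0.29 (SE), limma adjusted p = 0.24). Of 26 heat shock and endoplasmic reticulum stress genes, Dnajb1 alone moved up in both libraries, 7 moved up and 6 down in WT-TAC1 only and 11 did not move. Hspa5, the chaperone BiP, read 419 and 345 FPKM in WT-Sham and 318 and 341 FPKM in WT-TAC, just below the sham range. Of 24 tested genes of glucose uptake and glycolysis, Eno1 moved up in both and 11 moved down in WT-TAC1 only. Slc2a1, the glucose transporter GLUT1, read 8.55 and 11.4 FPKM in WT-Sham and 15.3 and 16.0 FPKM in WT-TAC (log2 fold change 0.61 ± 0.22 (SE), limma adjusted p = 0.17). Both its WT-TAC values lay above both sham values, as in 53.1% of all tested genes. None of these 3 lists held a called gene, and at an unadjusted p under 0.05 they held 1, 2 and 2 higher genes and 0, 1 and 2 lower ones. Over all tested genes, 23.3% were higher and 1.13% lower at that p. In WT-TAC1 only, 37.3% of all tested genes moved up and 6.31% down, and 10.5% moved up in both libraries.

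**Figure D5:**
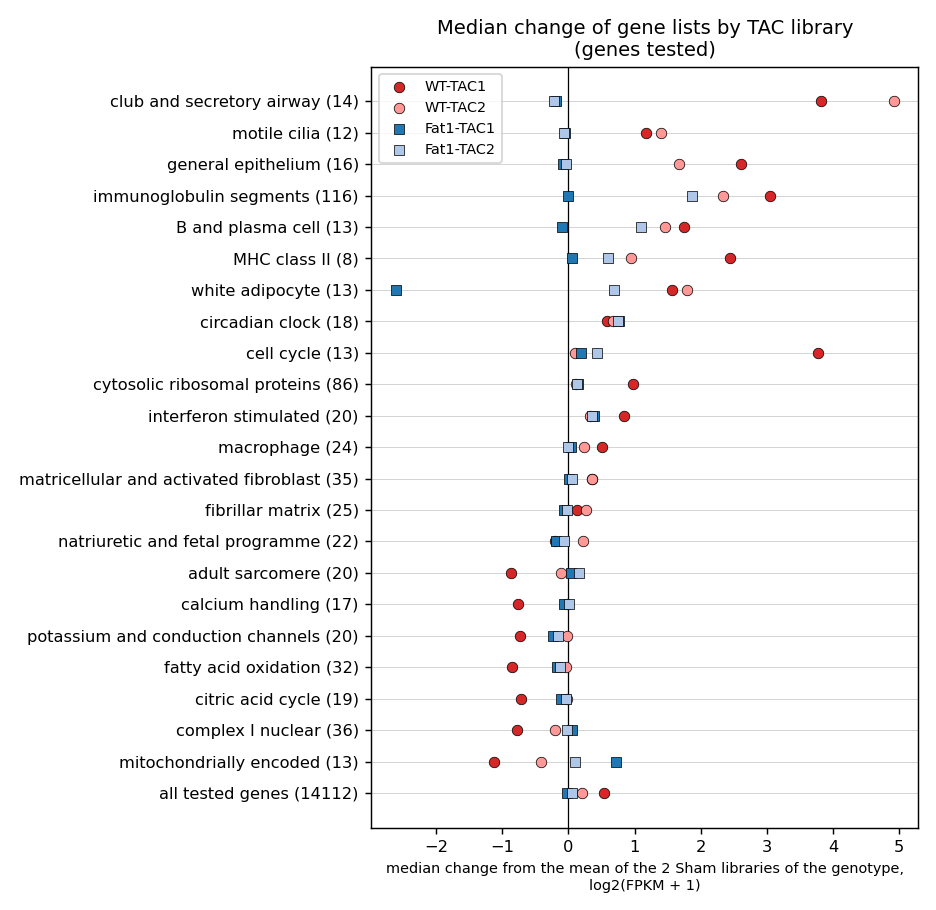
Median change of 22 gene lists and of all tested genes (vertical axis, number of tested genes in brackets) in each TAC library, as log2(FPKM + 1) minus the mean of the 2 sham libraries of the same genotype (horizontal axis). Airway, cilia and epithelial lists lie to the right in both WT-TAC libraries, and the lists of cardiomyocyte genes lie further to the left in WT-TAC1 than in WT-TAC2.

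Genes moved in WT-TAC2 only were fewer. The 8 with the largest upward change among genes with a mean of 5 FPKM or more were Ucp1, Actg2, Chad, Cidea, Itga8, Pcx, Tmem134 and Acot11. Cidea, a lipid droplet protein of brown fat, read 28.0 and 37.9 FPKM in WT-Sham and 41.6 and 115.3 FPKM in WT-TAC, and Pcx, pyruvate carboxylase, 25.6 and 24.8 FPKM in WT-Sham and 35.8 and 72.5 FPKM in WT-TAC. Actg2, an enteric smooth muscle actin, read 1.16 and 6.81 FPKM in WT-Sham and 6.41 and 15.001 FPKM in WT-TAC. WT-Sham2 was closer to WT-TAC1 than to WT-Sham1 in Actg2. Ttn, the giant sarcomeric spring titin, read 107 and 147 FPKM in WT-Sham and 103 and 214 FPKM in WT-TAC and moved up in WT-TAC2 as the only adult sarcomere gene. Of genes moved down in WT-TAC2 only, the 7 that reached that mean and have a gene name were S100a8, Rtl8b, H19, Slc40a1, Smim8, Lsm4 and Cdkn1a. Slc40a1, the iron exporter ferroportin, read 18.7 and 19.9 FPKM in WT-Sham and 25.9 and 11.98 FPKM in WT-TAC, and Smim8 45.4 and 39.6 FPKM in WT-Sham and 32.7 and 27.4 FPKM in WT-TAC.

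Of the 1477 genes moved up in both WT-TAC libraries, 60 also moved up in both Fat1-TAC libraries (4.06%, against 1.22% of all tested genes) and 14 moved down in both (0.948%, against 0.702%). Of the 61 genes moved down, 7 moved down in both Fat1-TAC libraries (11.5%) and 0 moved up. The test of the difference between genotypes called 11 genes (0.0779%), all with a higher TAC response in WT, and 1008 genes had an unadjusted p under 0.05 with a fold over 1.5. They were Cyp2a5, Ltf, Sec14l3, Ccdc153, Mir6392, Wfdc2, Bpifb1, Scgb3a2, Reg3g, Ehf and Aqp3, of which 5 are in the airway list. Mir6392, Ehf and Aqp3 were named after their values were seen. Wfdc2, a secreted protease inhibitor of airway epithelium, read 1.61 and 1.70 FPKM in WT-Sham and 34.9 and 70.7 FPKM in WT-TAC, and 1.07 and 1.46 FPKM in Fat1-Sham and 0.916 and 0.419 FPKM in Fat1-TAC. Limma called 82 genes without WT-TAC1 and 6646 without WT-TAC2. It called 0 without WT-Sham1 and 0 without WT-Sham2, where 446 and 1023 had an unadjusted p under 0.05. Bmp10, an atrial growth factor, read 8.63 and 0.0735 FPKM in WT-Sham and 45.7 and 28.6 FPKM in WT-TAC and 70.5 and 0.0797 FPKM in Fat1-Sham and 0.0119 and 0.0123 FPKM in Fat1-TAC, which moved up in both WT-TAC and down in both Fat1-TAC libraries, and its interaction did not pass the test (-6.65 ± 2.57, limma adjusted p = 0.49). Bmp10 was near 0 in WT-Sham2, where the atrial sum given above was highest, and high in Fat1-Sham1, where that sum was highest among the fat-1 libraries. The part of atrial RNA in its values was not tested.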

How the data were processed

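RNA of mouse hearts was sequenced in 8 libraries, 2 for each operation (sham or TAC) in each genotype (WT or fat-1). The FPKM values were computed by the authors and deposited as 1 table. HISAT2 and the build mm10 (GRCm38) are named in the submitters' processing notes, and the quantification tool is not given in the sources used here. Genes with 1 FPKM or more in at least 2 of the 4 WT libraries were tested with limma 3.58.1 (R 4.3.3) on log2(FPKM + 1), with 4 group means over all 8 libraries, a trended prior and Benjamini-Hochberg adjustment. Fold changes are on this scale, which understates changes of genes with low values. Genes were called at an adjusted p under 0.1 and a fold over 1.5, the cutoffs of the study. An exact permutation test of 2 against 2 libraries cannot give a p below 0.333 and was not used. Depth, the floor of 3 fragments and limma-voom used fragments recovered from the FPKM values, which were whole to within 0.002 at the median transcript length for 10944 genes and at an inferred length for 14984. These fragments are therefore inferred. The floors cover counting error only, whereas each SE comes from the limma fit and measures the spread between libraries. Named genes were list members, the 8 largest changes of each class and the 10 smallest adjusted p among calls. Both rankings used genes averaging at least 5 FPKM, without predicted genes, pseudogenes and segments of immunoglobulin or T cell receptor genes. The genes, classes and 41 lists were chosen with earlier results of these data known. Coordinates are from GENCODE M21 (GRCm38) and promoters from RefSeq (GRCm38.p6). Scripts were tested on simulated data.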

Additional observations from a re-analysis of the deposited data

Results flagged for a closer look

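The TAC response of 11 genes passed the limma test of the interaction between operation and genotype. The interaction term is the log2 fold change of Fat1-TAC over Fat1-Sham minus that of WT-TAC over WT-Sham. All 11 values were negative. The WT response was positive in all 11, from 2.17 for Ehf to 7.17 for Scgb3a2. The fat-1 response was small and below 0 in 10 of the 11, from -0.09 for Ltf to -0.97 for Scgb3a2. Between Fat1-TAC and Fat1-Sham limma called 0 genes. Scgb3a2 read 2.82 and 0 FPKM in Fat1-Sham and 0 in both Fat1-TAC libraries. Most of the 11 genes read near 0 in both WT-Sham libraries and passed the filter through the WT-TAC libraries, and with a pseudocount of 0.1 in place of 1 limma called 0 genes (990 at an unadjusted p under 0.05 with a fold over 1.5). The difference was -8.13 ± 0.90 (SE) for Scgb3a2, -7.43 ± 0.70 for Cyp2a5, -6.63 ± 0.64 for Ltf and -6.29 ± 0.64 for Sec14l3, with limma adjusted p-values of 0.0699, 0.0567, 0.0567 and 0.0567. It was -4.72 ± 0.55 for Reg3g, -4.71 ± 0.50 for Wfdc2, -4.23 ± 0.48 for Bpifb1 and -3.72 ± 0.31 for Ccdc153, with limma adjusted p-values of 0.0795, 0.0616, 0.0699 and 0.0567. For Mir6392 it was -2.78 ± 0.27 (limma adjusted p = 0.0567), for Ehf, an epithelial transcription factor, -2.28 ± 0.28 (limma adjusted p = 0.0806), and for Aqp3, a water channel of airway basal cells, -2.35 ± 0.28 (limma adjusted p = 0.0806). These last 3 genes were chosen after their values were seen. Of the genes named, Wfdc2, Ltf, Reg3g, Bpifb1 and Scgb3a2 belong to the airway list, whose sums differed between WT-TAC and the other libraries as given above, and the part of airway RNA in these differences was not tested. With 2 libraries per group, no library was tested for standing apart from its own group.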

How the results depend on the processing

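Counts of calls depended on the library left out and on the setting. In place of 167 genes called higher and 2 lower in WT-TAC, and 11 with a response that differed by genotype, there were 37, 1 and 1 under the median of ratios, 11, 0 and 0 under quantile normalization, 285, 7 and 69 with no filter on low values, 9, 0 and 0 at a mean of 5 FPKM or more, 49, 0 and 0 with a pseudocount of 0.1, 7, 0 and 7 with array weights, and 19, 0 and 0 with limma-voom. A test gene by gene gave 0 higher and 1 lower, the 4 WT libraries alone gave 122 and 1, and the sarcomere scaling, chosen after the data were seen, gave 20 genes for the genotype difference. Leaving out 1 library gave 0 to 6410 genes higher, 0 to 908 lower and 0 to 6646 for the genotype difference. At an unadjusted p under 0.05 the settings with 0 lower calls held between 51 and 1099 lower genes, and the leave-one-out fits with 0 calls in either direction held 808 and 2459 higher ones. Without Fat1-Sham1 50 and without Fat1-Sham2 49 genes were called higher. With the replicate number as a block, 57 higher, 0 lower and 0 genotype differences were called (2945, 159 and 750 at an unadjusted p under 0.05). The deviations of same-numbered WT-Sham and WT-TAC libraries correlated across genes at -0.0505. With only 2 libraries per group, this cannot decide whether same-numbered samples shared more than a number. Genes moved up in both WT-TAC libraries numbered 482 at a 2-fold limit, 744 at a mean of 5 FPKM or more, 651 and 468 under the median of ratios and quantile normalization, and 1053 to 2613 without 1 sham library. Genes moved down in both numbered 16, 35, 214, 302 and 91 to 101 in the same order, and 29 under the sarcomere scaling. Genes moved in WT-TAC1 only numbered 3759 at a 2-fold limit and 10051 under the sarcomere scaling, and those in WT-TAC2 only 173 and 95, with 688 without a filter and 189 at a mean of 5 FPKM or more. The fold change of Nppb became 0.23 under the sarcomere scaling and ranged from -0.44 to 0.065 when 1 library was left out (0.065 without WT-Sham1), that of Myh6 0.15 under quantile normalization, and that of Ankrd1 -0.48 under the median of ratios, -0.05 without WT-Sham1 and -0.22 without WT-TAC2. Over the genes tracked one by one and all alternatives, 653 fold changes kept their direction and side of the threshold, 88 lost the call, 11 gained one and 6 reversed. Of the list medians, 705 moved by less than a limit set from the gap between the WT-TAC1 and WT-TAC2 medians of each list. The others moved by more. This limit is widest for lists in which the 2 WT-TAC libraries differed most, so the 705 medians are not shown to be stable. The adult sarcomere median of -0.48 counted among them at -0.11 without WT-TAC1 and at -0.87 without WT-TAC2. The cause of the changes between settings was not tested. With 2 libraries per group, a difference that misses the threshold is not shown to be absent.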

Other observations

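Of 6 tested red blood cell genes, 4 moved down in WT-TAC1 only and 0 were called, and the list summed to 10584 and 9668 FPKM in WT-Sham and 5028 and 8439 FPKM in WT-TAC. Of 7 mesothelial genes, all tested, 2 moved up in both WT-TAC libraries (Krt19 and Upk1b) and 2 in WT-TAC2 only, with 0 called and 2 higher at an unadjusted p under 0.05 by limma. Over all tested genes, 10.5% moved up in both and 23.3% were higher at that p. Msln, which encodes mesothelin, read 11.4 and 14.1 FPKM in WT-Sham and 15.4 and 26.3 FPKM in WT-TAC. Of 74 mitochondrial ribosomal protein genes, 66 did not move, 6 moved down and 1 moved up in WT-TAC1 only and 1 moved up in WT-TAC2 only.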
